A study of Mus musculus with 2 samples.

Results

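In orthotopic mouse pancreatic tumors, 526 of 10513 keratin-positive, Epcam-low cells carried the highest shares of Muc5b, Muc5ac and Tff1 RNA. Summed over these cells, RNA of the gastrokines Gkn1 and Gkn2 stood at several times the level of the other Epcam-low cells. RNAs of some mucus-granule and epithelial junction genes were at least 2-fold higher. Several of these RNAs stood at like levels in Epcam-high tumor cells, but Gkn2 was lower there. The series holds 24282 cells in all. The 10513 base cells had at least 3000 UMIs (unique molecular identifiers, each standing for 1 captured molecule), at most 1 UMI of the leukocyte gene Ptprc, under 0.3% of UMIs from Col1a1, Col1a2 and Col3a1, at least 0.2% from Krt8 and Krt18, and under 0.04% from Epcam. The mucin-high cells are the top 5% of base cells, both libraries together, by the summed share of Muc5b, Muc5ac and Tff1. The levels of the genes used in this choice are therefore given as a description wherever they appear, and the counts of genes leave them out.

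The tumors were KPC tumors, a mouse model of pancreatic ductal adenocarcinoma, grown in the pancreas. One pooled sample came from tumors given DMSO, the vehicle, and the other from tumors given 10 mg/kg EIPA, an amiloride derivative that blocks sodium-proton exchange and with it macropinocytosis, the uptake of fluid in bulk. Each sample pooled 4 flash-frozen tumors, whose cells were fixed and probed with gene-specific probe pairs. Alleles, host strain, age and length of treatment are not given in the sources used here.

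Muc5b and Muc5ac encode gel-forming mucins, large secreted glycoproteins that are linked end to end, packed into granules and released as the scaffold of mucus. Tff1 and Tff2 encode trefoil peptides that are secreted with mucus, and Muc5ac with Tff1 is the typical pair of the surface (foveolar) cells of the stomach. The healthy pancreatic duct makes little of either mucin, whereas pancreatic precursor lesions and well-differentiated carcinomas of the classical subtype often switch on this gastric program.

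Both samples share 1 matrix, in which a number at the end of each barcode separates library 1 (12337 cells) from library 2 (11945 cells). No label ties that number to DMSO or EIPA, so all values are given per library and none has a treatment direction. The libraries shared 225 barcode sequences, and 12 mucin-high cells carried a barcode that was also present in the other library, none of them as a mucin-high cell in both. With 1 pooled sample per library, and cells that are not replicates, no test was possible. Differences are described by their size and by whether both libraries show them, and the 95% intervals cover counting error only.

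Library 1 contributed 381 mucin-high cells, 7.31% of its 5213 base cells (exact binomial interval 6.62 to 8.05). Library 2 contributed 145, or 2.74% of 5300 (2.31 to 3.21). Their median depth was 21299 and 18985 UMIs, against 17066.5 and 17755 in the other base cells. The 5% limit fell at 3554.5 CPM (UMIs of the 3 genes scaled to a total of 1000000 per cell or population), or 0.355% of a cell's UMIs, with the 10 cells just inside it at 3554.5 to 3652 and the 10 just outside at 3480 to 3554. It divided a continuous range: 75 mucin-high cells and 85 other cells lay within 1.2 times of it. The median mucin-high cell stood at 6880 CPM and the highest at 47720 CPM, whereas the median other base cell stood at 141 CPM and 1850 of the others had no UMI of the 3 genes. High Scrublet doublet scores were found in 11.0% and 8.28% of mucin-high cells and in 9.98% and 9.66% of other base cells.

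**Figure D1:**
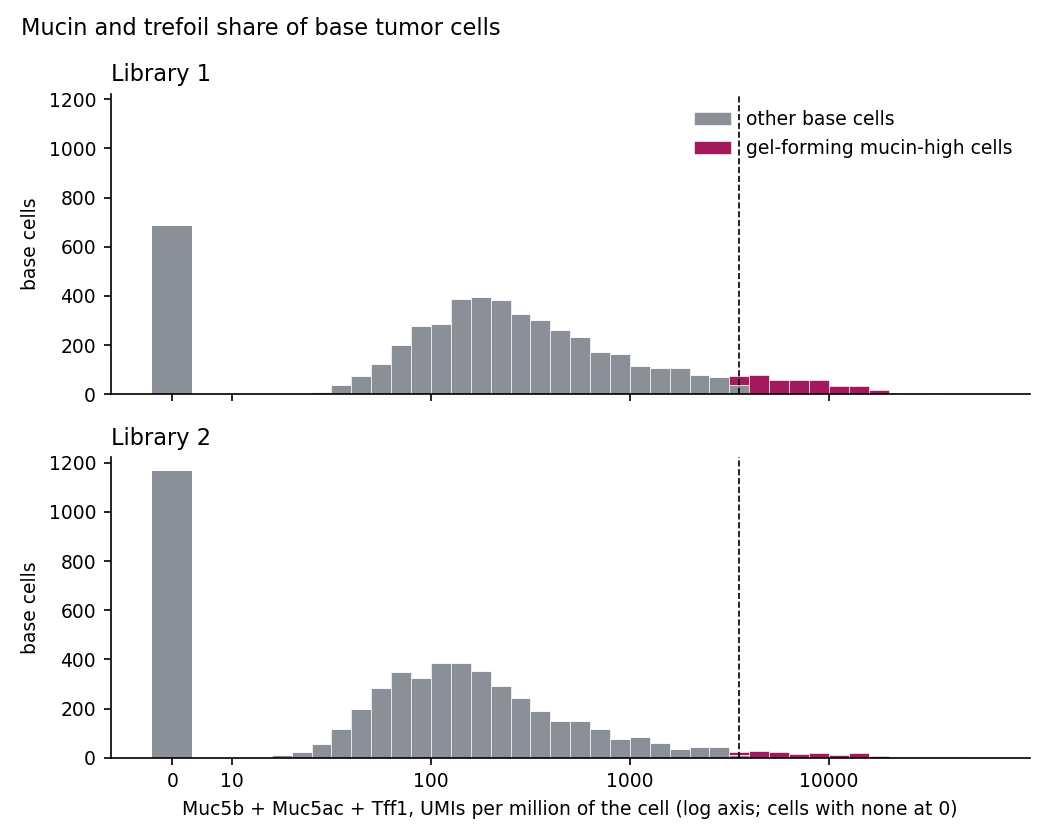
Number of base cells (vertical axis) by the summed share of Muc5b, Muc5ac and Tff1 in each cell (horizontal axis, CPM on a log scale, cells with none at 0), for libraries 1 and 2. Mucin-high cells, in dark red, begin at the dashed line at 3554.5 CPM, and the other base cells, in gray, run up to it without a gap in either library; the bar that the line crosses stacks both.

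Tff1 supplied most of the RNA that chose these cells. Summed over cells, Tff1 stood at 4620 CPM in library 1 and 7211 CPM in library 2, against 214 and 149 CPM in other base cells. Muc5b stood at 1558 and 1370 CPM against 180 and 60.0 CPM. Muc5ac stood at 2003 and 1988 CPM against 73.6 and 37.7 CPM. Tff1 gave more UMIs than either mucin in 335 of the 526 cells (63.7%), Muc5b led in 112 and Muc5ac in 79, so the label "gel-forming mucin-high" describes the summed level rather than each cell. A UMI of all 3 genes was present in 431 (81.9%) of the mucin-high cells and in 17.8% of the other base cells, and 368 (70.0%) would also be in the top 5% by Muc5b and Muc5ac alone. When each cell was thinned to 3000 UMIs, Muc5ac was detected in 79.8% and 73.8% of mucin-high cells, 12.7% and 6.36% of other base cells, and 11.1% and 5.49% of immune barcodes, which should lack it (median depths 7239 and 7746.5 UMIs). For Muc5ac, the share in other base cells was thus close to that in immune barcodes. Muc5b was detected in 26.4% and 10.6% of other base cells and in 12.1% and 6.67% of immune barcodes. Tff1 was detected in 27.5% and 25.8% of other base cells and in 19.7% and 18.4% of immune barcodes.

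Neighboring genes of the same families were not all high. In mm10, Muc6, Muc2, Muc5ac and Muc5b lie in 1 block of chromosome 7 that spans 239.6 kb, with Muc5ac at chr7:141788972-141819231 and Muc5b at chr7:141839070-141873084, both on the plus strand. Muc2, the main intestinal gel-forming mucin, stood at 4.63 and 7.10 CPM in mucin-high cells and at 9.78 and 10.8 CPM in other base cells. Muc6, the mucin of gastric glands, gave 2 UMIs in the mucin-high cells of library 1 and 0 in those of library 2, where 0 counts allow up to 0.887 CPM. Of this block, only the mucins used to choose the cells passed 20 CPM in them. In the trefoil block of chromosome 17 (Tff3, Tff2 and Tff1 within 40.0 kb, all on the minus strand), Tff2 stood at 1028 and 2767 CPM against 229 and 259 CPM in other base cells, and Tff3 at 3.40 and 2.66 CPM against 0.259 and 0.418 CPM.

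Across 8753 genes with at least 20 CPM in either cell set, other than those used to choose the cells, 273 (3.12%) were at least 2-fold higher in mucin-high cells in both libraries and 147 (1.68%) at least 2-fold lower in both. No gene was past 2-fold in opposite directions in the 2 libraries, and the median log2 ratio of all tested genes was -0.04 and -0.05. Without the clusters that drew at least 95% of their cells from 1 library, the counts were 268 and 148, of which 245 and 122 were among the genes above. These counts are against Epcam-low cells only. Levels in Epcam-high tumor cells are given further on for some of the genes, and as medians for some of the lists. Gene lists below are read against these shares. The lists and the choice of cells were made with earlier results of these data known.

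Gastric surface genes stood furthest above the other base cells. Of 10 tested genes of this list, 8 were at least 2-fold higher in both libraries and none lower, with a median log2 ratio of 1.88 and 2.52. Gkn2, a gastrokine secreted by surface mucous cells that binds Tff1, stood at 200 CPM (191 to 209) in library 1 and 933 CPM (901 to 966) in library 2, against 6.58 and 5.48 CPM in other base cells. Gkn1, the related gastrokine, stood at 306 and 481 CPM against 31.8 and 15.4 CPM. Gkn3 stood at 29.3 and 56.2 CPM against 11.8 and 5.25 CPM. All 3 gastrokine genes were higher in both libraries, but the RNA was unevenly spread over cells. In library 2, 3 cells held 53.8% of the Gkn2 UMIs and 52.4% of the Gkn1 UMIs, and Gkn2 was detected in 129 of 381 and 81 of 145 mucin-high cells. With cells thinned to 3000 UMIs it was detected in 17.1% and 37.9% of mucin-high cells and in 1.92% and 1.47% of other base cells, the latter close to the 2.02% and 1.18% of immune barcodes. Without the 3 highest cells of each library the Gkn2 log2 ratio went from 4.73 to 4.41 in library 1 and from 7.17 to 6.13 in library 2, and that of Gkn1 from 3.22 to 3.02 and from 4.88 to 3.88.

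The other gastric genes past 2-fold are not gastrokines. Phgr1, a small protein of the gastrointestinal surface epithelium, stood at 152 and 73.9 CPM against 15.2 and 8.98 CPM. Sult1c2, a sulfotransferase of the stomach, stood at 155 and 118 CPM against 26.6 and 26.2 CPM. Anxa10, an annexin of gastric epithelium, stood at 127 and 96.4 CPM against 41.3 and 34.2 CPM. Vsig1, a gastric junction protein, stood at 142 and 163 CPM against 50.9 and 61.5 CPM, so that each of these 4 genes was above 2-fold in both libraries. Ctse, the aspartic protease cathepsin E, was past 2-fold in library 1 only (1120 against 495 CPM, and 570.0 against 312 CPM), and Onecut2 did not differ past 2-fold in either (log2 ratio 0.13 and -0.08). Sox2, of foregut progenitors, and Cblif, of gastric gland cells, gave no UMI in mucin-high cells.

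The 3 gastrokine genes lie side by side within 43.3 kb of chromosome 6, and Mucl3 lies alone on chromosome 17. The bases just upstream of their starts are shown because these genes, other than Gkn3, had the largest ratios to other base cells (by the library with the smaller ratio) among the gastric and membrane mucin lists, and Gkn3 completes the gastrokine block. They are RefSeq promoter windows of GRCm38.p6 (mm10), read 5′ to 3′ on the gene's strand and ended before the first base of the gene in either RefSeq or GENCODE vM21. Capitals mark GATAAG or its reverse complement CTTATC, the core sequence bound by GATA factors.
Gkn1, chr6:87350943-87351165, minus strand: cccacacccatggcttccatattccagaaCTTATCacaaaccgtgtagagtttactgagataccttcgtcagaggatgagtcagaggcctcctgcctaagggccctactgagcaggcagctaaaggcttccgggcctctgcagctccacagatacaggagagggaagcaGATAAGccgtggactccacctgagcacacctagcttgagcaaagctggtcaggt
Gkn2, chr6:87373115-87373356, plus strand: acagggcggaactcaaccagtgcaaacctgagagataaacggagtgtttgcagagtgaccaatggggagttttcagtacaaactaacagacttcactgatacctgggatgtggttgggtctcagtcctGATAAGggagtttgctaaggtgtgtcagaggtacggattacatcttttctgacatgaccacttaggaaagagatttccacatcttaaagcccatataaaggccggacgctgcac
Gkn3, chr6:87388936-87389185, minus strand: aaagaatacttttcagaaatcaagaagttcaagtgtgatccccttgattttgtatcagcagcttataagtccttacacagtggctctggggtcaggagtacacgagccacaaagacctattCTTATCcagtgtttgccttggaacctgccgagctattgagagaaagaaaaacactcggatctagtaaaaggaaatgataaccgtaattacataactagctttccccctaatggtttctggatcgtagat
Mucl3, chr17:35643696-35643945, minus strand: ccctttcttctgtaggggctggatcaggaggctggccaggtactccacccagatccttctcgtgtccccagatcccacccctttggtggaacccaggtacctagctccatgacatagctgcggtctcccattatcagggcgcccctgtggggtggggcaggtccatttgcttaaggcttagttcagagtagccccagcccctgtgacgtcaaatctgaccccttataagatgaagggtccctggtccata

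GATAAG was present on either strand in the Gkn1, Gkn2 and Gkn3 stretches and not in that of Mucl3. It starts 81 and 221 bases before the RefSeq start of Gkn1, 122 bases before that of Gkn2 and 129 bases before that of Gkn3. Of 32851 promoter windows in the table, 6.55% held it within 250 bases upstream. The other motifs searched on both strands were TGTTTNC of forkhead factors (17.8% of windows, present for Gkn2 and Gkn3), TATAAA (12.4%, present for Gkn2) and CCACCC of Kruppel-like factors (28.1%, present at 3 places for Mucl3). No matches overlapped, and the motifs were chosen after these sequences were seen. Of 42 genes looked up, 29 had a window; Muc5b, Muc5ac, Tff1, Tff2 and Bcas1 had none. Of the GATA factors, Gata6 stood at 79.8 and 58.5 CPM against 73.5 and 62.9 CPM in other base cells, and Gata4 at 26.6 and 21.0 CPM against 14.1 and 11.4 CPM, both within 2-fold. A match is a run of letters only, and binding was not measured.

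Genes for making, packing and releasing mucus were higher in part. Of 16 tested genes of the packaging and secretion list, 7 were at least 2-fold higher in both libraries and none lower (median log2 ratio 0.96 and 0.70). Bcas1, best known from myelin-forming cells, stood at 356 and 254 CPM against 34.5 and 19.0 CPM. Rab27a, a small GTPase of secretory granules, stood at 34.6 and 60.0 CPM against 6.41 and 6.84 CPM, and its effector Sytl2 at 144 and 124 CPM against 47.5 and 49.4 CPM. Rab3d, Atp2c2 (a Golgi calcium and manganese pump) and Foxa3 were also past 2-fold in both. Ern2, the stress sensor of mucous cells that processes Xbp1 RNA, stood at 142 and 44.4 CPM against 17.1 and 7.86 CPM. By contrast Creb3l1 stood at 133 and 112 CPM against 94.4 and 94.8 CPM, and the docking and priming genes Stxbp2, Unc13b and Unc13d were within 2-fold. Agr3, Zg16, Syt2 and Itln1, genes of the list that are typical of goblet cells or regulated secretion, gave no UMI in mucin-high cells.

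Enzymes that attach sugars to mucins differed less. Of 19 tested O-glycosylation genes, 4 were at least 2-fold higher in both libraries and none lower, with a median log2 ratio of 0.28 in each. Gcnt3, the branching enzyme of mucin glycans, stood at 1308 and 1136 CPM against 390 and 307 CPM. Fut2, the secretor fucosyltransferase, stood at 165 and 183 CPM against 30.5 and 29.0 CPM. Galnt7 (516 and 234 against 221 and 107 CPM) and the sulfotransferase Gal3st1 (55.5 and 72.4 against 13.1 and 13.9 CPM) completed the 4. Initiating and elongating enzymes such as Galnt1, Galnt2, C1galt1 and B4galt1 were within 2-fold.

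Among membrane-bound mucins, 3 of 4 tested genes were at least 2-fold higher in both libraries. Mucl3 stood at 358 CPM (346 to 370) and 195 CPM (180 to 210.0), against 12.5 and 5.10 CPM in other base cells, and was detected in 227 of 381 and 63 of 145 mucin-high cells. In library 2, 3 cells held 37.4% of its UMIs. Its log2 ratio went from 4.74 to 4.48 and from 5.0 to 4.39 without the 3 highest cells of each library. Muc1 stood at 362 and 275 CPM against 135 and 121 CPM, and Muc4 at 37.7 and 41.1 CPM against 18.1 and 11.3 CPM. Muc15 and Muc16 gave no UMI in mucin-high cells.

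**Figure D2:**
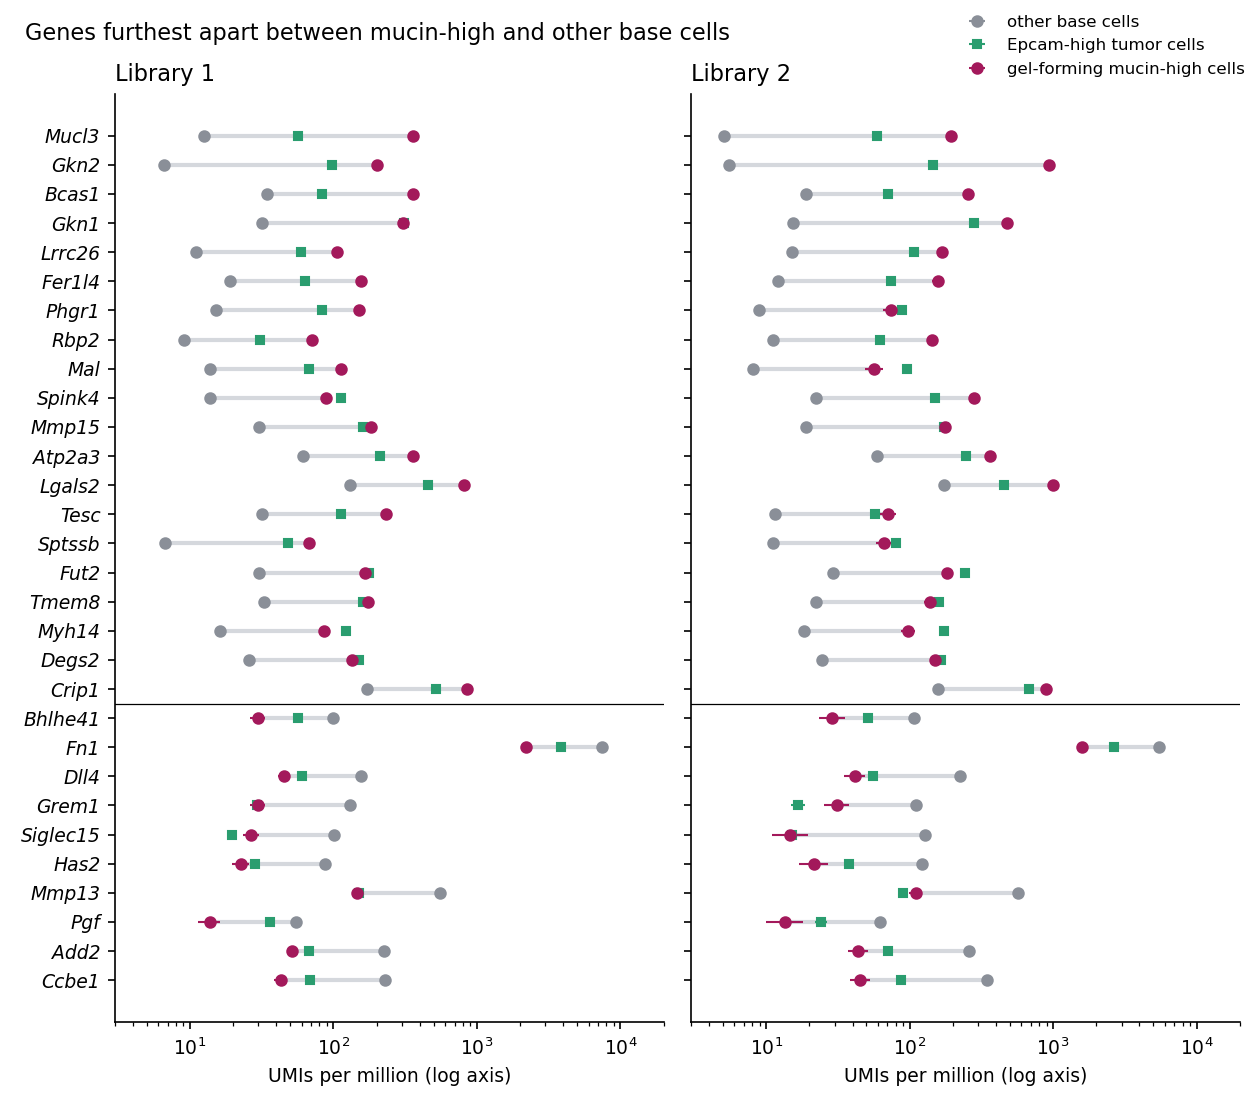
Levels of the 20 genes furthest above (upper part) and the 10 furthest below (lower part) the other base cells, ranked by the smaller log2 ratio of the libraries, with CPM on log axes. Points are sums over cells with exact 95% Poisson intervals for mucin-high cells, other base cells and Epcam-high tumor cells; Gkn2 in library 2 stands at 933 CPM in mucin-high and 5.48 CPM in other base cells.

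The 20 genes named by rule as highest in mucin-high cells ranged from 5.0 to 30.4 times the other base cells in library 1 and from 5.36 to 170 times in library 2. Besides those above, they include genes of absorptive and secretory gut epithelium. Rbp2, an intestinal retinol-binding protein, stood at 71.5 and 144 CPM against 9.04 and 11.1 CPM. Spink4, a protease inhibitor of goblet cells, stood at 88.7 and 281 CPM against 13.8 and 22.4 CPM. Lgals2, a galectin of the gut, stood at 809 and 1001 CPM against 131 and 174 CPM. These 3 were thus at least 5 times higher in each library. Mal, an apical sorting protein, stood at 112 and 56.8 CPM against 13.9 and 8.13 CPM. Lrrc26, an auxiliary subunit of potassium channels in secretory epithelia, stood at 106 and 169 CPM against 11.0 and 15.2 CPM. Atp2a3, a calcium pump of the endoplasmic reticulum, stood at 358 and 364 CPM against 61.6 and 59.5 CPM, and was seen in 358 of 381 and 131 of 145 cells. The remaining genes were Fer1l4, Mmp15, Tesc, Sptssb, Tmem8, Myh14, Degs2 and Crip1.

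Most markers of intestinal goblet cells were low or gave no UMI. Spink4 was the only one of 11 goblet markers that reached 20 CPM, and Zg16, Itln1, Retnlb and the goblet determinant Atoh1 gave no UMI. Spdef, a driver of mucous cell maturation, stood at 14.8 and 19.5 CPM in mucin-high cells, below the level of 20 CPM needed for testing, against 5.07 and 4.21 CPM in other base cells and 61.9 and 67.3 CPM in Epcam-high tumor cells.

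Transcription factors of foregut lineages were mostly within 2-fold. Of 18 tested, Elf3, Klf4, Foxa3 and Cdx2 were at least 2-fold higher in both libraries and none lower. Klf4, a factor of surface epithelia, stood at 477 and 489 CPM against 156 and 149 CPM, and Elf3, an epithelial ETS factor, at 272 and 383 CPM against 75.0 and 76.7 CPM. Cdx2, the intestinal homeobox factor, was low in absolute terms (10.7 and 26.9 against 3.70 and 8.49 CPM). Pdx1, Hnf4a, Foxa2 and Sox9, factors of pancreatic and gut epithelium, had log2 ratios between -0.52 and 0.37.

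Genes of the classical subtype of pancreatic cancer were higher as a group: 9 of 14 tested genes were at least 2-fold higher in both libraries and none lower (median log2 ratio 1.28 and 1.57). Lgals4, a galectin of gut epithelium, stood at 733 and 961 CPM against 199 and 165 CPM. Krt20, a keratin of differentiated gut epithelium, stood at 310 and 341 CPM against 119 in each library. The list shares Tff2, Anxa10 and Ctse with the gastric list. Genes of the basal-like subtype did not go the other way as a group. Krt7, Krt14, Serpinb5 and Anxa8 were at least 2-fold higher and Ivl lower among 10 tested, while Krt5, Krt6a, Krt17 and Trp63, which define squamous cells, gave no UMI in mucin-high cells.

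Epithelial junction and keratin genes were also higher, in cells selected for low Epcam. As a description, Epcam itself stood at 85.8 and 68.0 CPM against 55.4 and 43.7 CPM in other base cells. Krt8 stood at 3278 and 3787 CPM against 1929 and 2513 CPM, and Krt18 at 1549 and 1435 CPM against 1665 and 1609 CPM. Of 17 tested genes, 9 were at least 2-fold higher in both libraries and none lower (median log2 ratio 1.18 and 1.25). Cdh1, the E-cadherin of adherens junctions, stood at 1154 and 690 CPM against 485 and 316 CPM. Krt19, a keratin of ductal epithelium, stood at 3398 and 3998 CPM against 1146 and 1353 CPM. The desmosomal genes Dsp, Dsc2 and Dsg2, the tight-junction genes Cldn7 and Tjp3, the polarity gene Crb3 and the epithelial splicing factor Esrp2 were higher as well. Cldn3 was not among them, at 3.50 and 27.2 CPM against 5.19 and 18 CPM.

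Mesenchymal genes were lower. Among 14 tested genes of epithelial-mesenchymal transition, 5 were at least 2-fold lower in both libraries and none higher (median log2 ratio -0.58 and -0.84). Fn1, which encodes the matrix protein fibronectin, stood at 2203 and 1588 CPM against 7433 and 5462 CPM. The transcription factors Zeb2 (41.9 and 29.0 against 88.1 and 65.9 CPM) and Snai2 (20.3 and 17.7 against 49.6 and 38.5 CPM) and the matrix and integrin genes Tnc and Itga5 were the other genes past 2-fold. Vim, the intermediate filament of mesenchymal cells, was the exception of the list: it stood at 5652 and 5840 CPM against 4203 and 4686 CPM, and so was not lower in either library.

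The 10 genes named by rule as lowest ranged from 0.186 to 0.298 of the level in other base cells in library 1 and from 0.116 to 0.291 in library 2. Several encode secreted or matrix proteins. Mmp13, a collagenase, stood at 147 and 110 CPM against 556 and 570 CPM. Grem1, an antagonist of bone morphogenetic proteins, stood at 29.7 and 31.0 CPM against 130 and 110 CPM. Has2, a hyaluronan synthase, stood at 22.6 and 21.6 CPM against 87.0 and 123 CPM. Ccbe1, a factor that aids lymphatic growth, stood at 42.8 and 45.2 CPM against 231 and 347 CPM, the lowest ratios of the 10 in library 1. The Notch ligand Dll4, the placental growth factor Pgf, and Add2, Siglec15 and Bhlhe41 complete the set. Within the same Notch list, Dll1 (479 and 363 against 211 and 174 CPM) and Jag2 (69.3 and 74.8 against 27.9 and 35.8 CPM) were higher, so the Notch ligands differed in direction.

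Hypoxia and glycolysis genes were lower by small amounts: 19 of 20 tested genes had log2 ratios below 0 in both libraries (median -0.64 and -0.46), but only Bnip3, a mitophagy receptor induced by low oxygen, was past 2-fold in both. Vegfa, the angiogenic growth factor, stood at 406 and 381 CPM against 842 and 735 CPM. Growth-factor signaling genes showed the same kind of difference. Of 14 tested genes of the EGF receptor axis, 11 were below 0 in both libraries (median -0.44 and -0.62), with Hbegf at 238 and 200 CPM against 439 and 387 CPM and Dusp6, a feedback phosphatase of ERK signaling, at 482 and 483 CPM against 742 and 786 CPM. The other 3, Erbb3, Erbb2 and Spry4, were above 0 in both, and Erbb3 was past 2-fold, at 89.2 and 88.1 CPM against 31.1 and 23.1 CPM. Among immediate early genes Egr1 and Egr3 were at least 2-fold lower and Fos at least 2-fold higher in both.

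Most other programs had few or no genes past 2-fold in both libraries. None of 21 tested genes of protein folding and stress in the endoplasmic reticulum was past 2-fold in both libraries (median log2 ratio 0.11 and 0.23), and Hspa5 stood at 335 and 415 CPM against 330 and 381 CPM. None of 16 sodium-proton exchanger and macropinocytosis genes was past 2-fold in both (median -0.05 and 0.05). No gene past 2-fold in both was found among lysosomal, interferon-stimulated and cholesterol synthesis genes either. Of 16 tested cholesterol genes, 14 were above 0 in both libraries (median 0.48 and 0.14). Ion and fluid transport genes were mixed, with the chloride channel Cftr (141 and 260 against 49.8 and 53.5 CPM), Slc26a9 and Car2 at least 2-fold higher and the aquaporin Aqp3 lower. Of 22 tested cell cycle genes 1, Rrm2, was at least 2-fold higher in both, and 18 were above 0 in both (median 0.51 and 0.15).

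**Figure D3:**
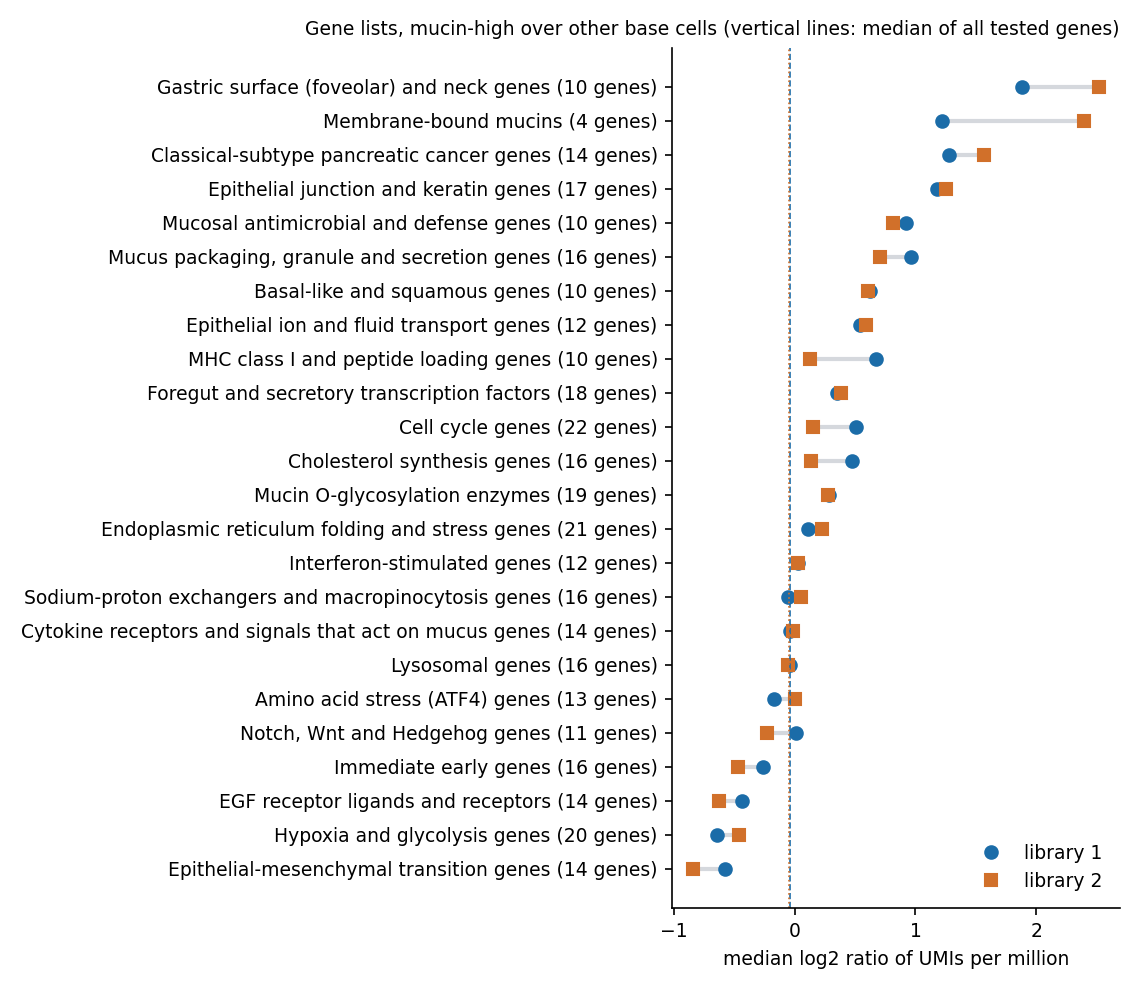
Median log2 ratio of mucin-high over other base cells (horizontal axis) for each gene list with at least 4 tested genes, with library 1 as circles and library 2 as squares and the number of tested genes in brackets. Gastric surface genes lie furthest to the right (1.88 and 2.52) and epithelial-mesenchymal transition (-0.58 and -0.84) and hypoxia and glycolysis genes (-0.64 and -0.46) to the left, while the vertical lines mark the medians of all tested genes at -0.04 and -0.05.

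Markers of other cell types were measured in the same cells. Summed over 10 T-cell markers, mucin-high cells stood at 9.68 and 24.2 CPM and other base cells at 7.97 and 15.3 CPM, and none of the markers reached 20 CPM. Fibroblast markers summed to 62.8 and 62.1 CPM against 138 and 121 CPM, and endothelial markers to 159 and 161 CPM against 299 and 236 CPM. Macrophage markers summed to 746 and 1075 CPM against 691 and 1073 CPM, most of it from Cd74, and the other 4 tested genes of that list were below other base cells in both libraries. Of 13 acinar markers 5 gave no UMI, and of 11 tuft-cell markers Il25, Gnat3 and Gfi1b gave none. The part that RNA from other cells plays in these levels was not tested.

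Epcam-high tumor cells (1993 cells with Epcam at or above 0.04% of UMIs, otherwise chosen like base cells) are a separate group of tumor cells in the series. Against them, 43 of 8878 tested genes (0.484%) were at least 2-fold higher in mucin-high cells in both libraries and 232 (2.61%) at least 2-fold lower. This comparison shares the mucin-high cells with the one above. As a description, Epcam-high cells had 1048 and 1570 CPM of Tff1, 220 and 143 CPM of Muc5ac and 64.9 and 24.7 CPM of Muc5b. Several gastric genes were close in level: Gkn1 stood at 306 and 481 CPM in mucin-high and 310.3 and 283 CPM in Epcam-high cells, and Phgr1 at 152 and 73.9 against 83.6 and 89.2 CPM. Gkn2 was higher than in Epcam-high cells, at 200 and 933 against 97.8 and 145 CPM. Tff2 was close in library 1, at 1028 and 2767 against 1027 and 1481 CPM. Gkn3 was lower than in Epcam-high cells, at 29.3 and 56.2 against 170 and 82.1 CPM. So were the membrane-bound mucins Muc1 (362 and 275 against 473 and 498 CPM) and Muc4 (37.7 and 41.1 against 174 and 119 CPM). Of epithelial genes, Krt19 was close, at 3398 and 3998 against 3187 and 3349 CPM, as was Cdh1, at 1154 and 690.4 against 1113 and 933 CPM. The epithelial list was lower as a group, with a median log2 ratio of -0.54 and -0.67 against Epcam-high cells. The same median was -0.21 and -0.28 for classical-subtype genes and -0.38 and -0.41 for foregut transcription factors. It was 0.08 and -0.36 for packaging and secretion, 0.21 and 0.08 for O-glycosylation and 0.30 and -0.27 for gastric surface genes. Elf3 (272 and 383 against 405 and 549 CPM) and Lgals4 (733 and 961 against 1303 and 1372 CPM) were lower. Klf4 was higher, at 477 and 489 against 234 and 283 CPM. Mucl3 (358 and 195 against 56.8 and 59.2 CPM) and Bcas1 (356 and 254 against 83.3 and 70.5 CPM) stood well above the Epcam-high level. So did Fabp5, a fatty-acid-binding protein (89.0 and 114 against 18.4 and 19.5 CPM), the suprabasal keratin Krt13 (37.6 and 34.0 against 6.92 and 7.27 CPM), the water channel Aqp1 (631 and 739 against 188 and 233 CPM) and the aldehyde dehydrogenase Aldh3a1 (128 and 141 against 26.3 and 50.6 CPM).

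Some mucosal defense and tight-junction genes were lower than in Epcam-high cells. Against other base cells, 8 of 10 tested defense genes had log2 ratios above 0 in both libraries and 2 below 0 (median 0.92 and 0.82). Dmbt1, a secreted scavenger protein that binds bacteria, stood at 602 and 743 CPM in mucin-high and 3028 and 2001 CPM in Epcam-high cells. In other base cells Dmbt1 stood at 310 and 260 CPM. Lcn2, which binds bacterial iron carriers, stood at 18.1 and 19.2 CPM against 165 and 83.2 CPM in Epcam-high cells and 54.1 and 43.1 CPM in other base cells, so it was lowest in mucin-high cells. Ceacam1, of the same defense list, was not lower, at 145 and 155 CPM against 118 and 138 CPM in Epcam-high cells. Cldn7 stood at 82.8 and 64.5 CPM against 434 and 428 CPM in Epcam-high cells, and Cldn4 at 5.25 and 2.96 CPM against 149 and 107 CPM. Agr2, a disulfide isomerase needed for mucin assembly, stood at 5.87 and 19.8 CPM against 101 and 74.1 CPM. Fn1, by comparison, was lower in mucin-high than in Epcam-high cells as well (3829 and 2656 CPM in the latter).

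Ranking all base cells by their mucin and trefoil share showed which genes followed the whole range. Base cells with no UMI of the 3 genes, 5 equal bins of the remaining other cells, and the mucin-high cells with lower and higher shares were compared. Fn1 stood at 9463 and 6756 CPM where no UMI was present, at 6981 and 4468 CPM in the fourth bin, at 4383 and 3108 CPM in the fifth, and at 1770 and 1446 CPM in the mucin-high cells with the highest shares. Krt19 ran the other way, from 830 and 1083 CPM to 3771 and 4636 CPM. Gkn2 was flat over most of the range: it stood between 2.27 and 5.85 CPM up to the fourth bin, at 15.9 and 19.7 CPM in the fifth, at 137 and 130 CPM in mucin-high cells with lower shares and at 269 and 1608 CPM in those with higher shares. Cells without a UMI had a median depth of 8196 and 10016 UMIs, against 12630 to 25826 in the other groups. The part that depth plays in the trends was not tested.

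**Figure D4:**
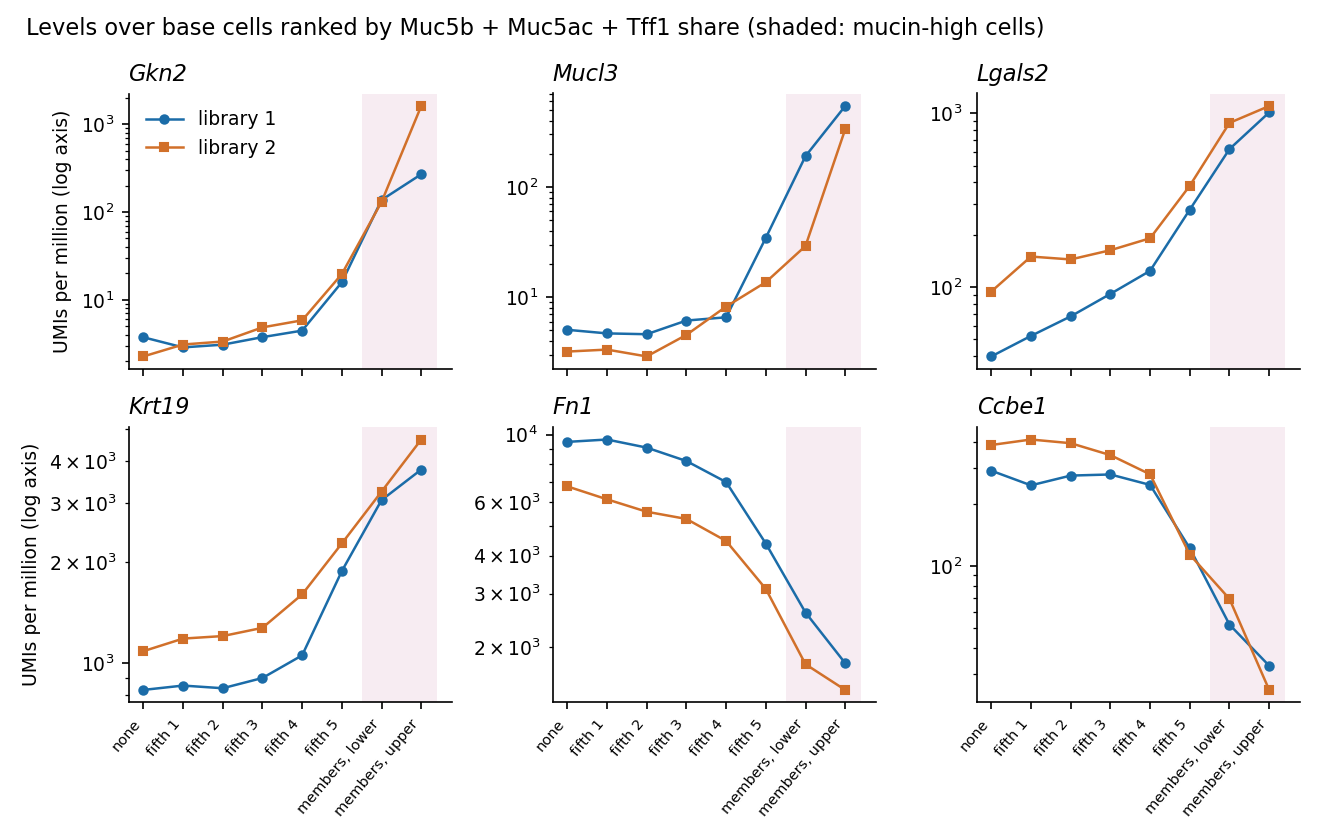
CPM (vertical log axes) of Gkn2, Mucl3, Lgals2, Krt19, Fn1 and Ccbe1 in base cells ordered by their Muc5b, Muc5ac and Tff1 share (horizontal axis), from cells with none through 5 equal bins to mucin-high cells with lower and higher shares (shaded). Krt19 and Lgals2 climb and Fn1 declines over several bins in both libraries, whereas Gkn2 and Mucl3 stay low until the fifth bin.

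Mucin-high cells were not alike. Grouped by which of the 3 genes gave the most UMIs, cells led by Muc5b (86 and 26 cells) had less gastrokine RNA than cells led by Muc5ac (66 and 13) or Tff1 (229 and 106). Gkn1 stood at 66.3 and 78.4 CPM in Muc5b-led cells, 640 and 371 CPM in Muc5ac-led cells and 280 and 569 CPM in Tff1-led cells. Gkn2 stood at 24.2 and 68.4 CPM, 426 and 367 CPM, and 186 and 1155 CPM in the same order. Mucl3 was highest in Tff1-led cells (473 and 239 CPM), with 58.8 and 24.1 CPM in Muc5b-led cells. Spdef was also highest in Tff1-led cells, at 20.8 and 24.5 CPM. It stood at 2.88 and 2.01 CPM in Muc5b-led and 5.22 and 3.71 CPM in Muc5ac-led cells. Both of these groups lie far under 20 CPM, so their order is not read. Bcas1, Klf4 and Spink4 were not ordered in this way in both libraries: Bcas1 stood at 257 and 259 CPM in Muc5b-led and 369 and 255 CPM in Tff1-led cells.

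**Figure D5:**
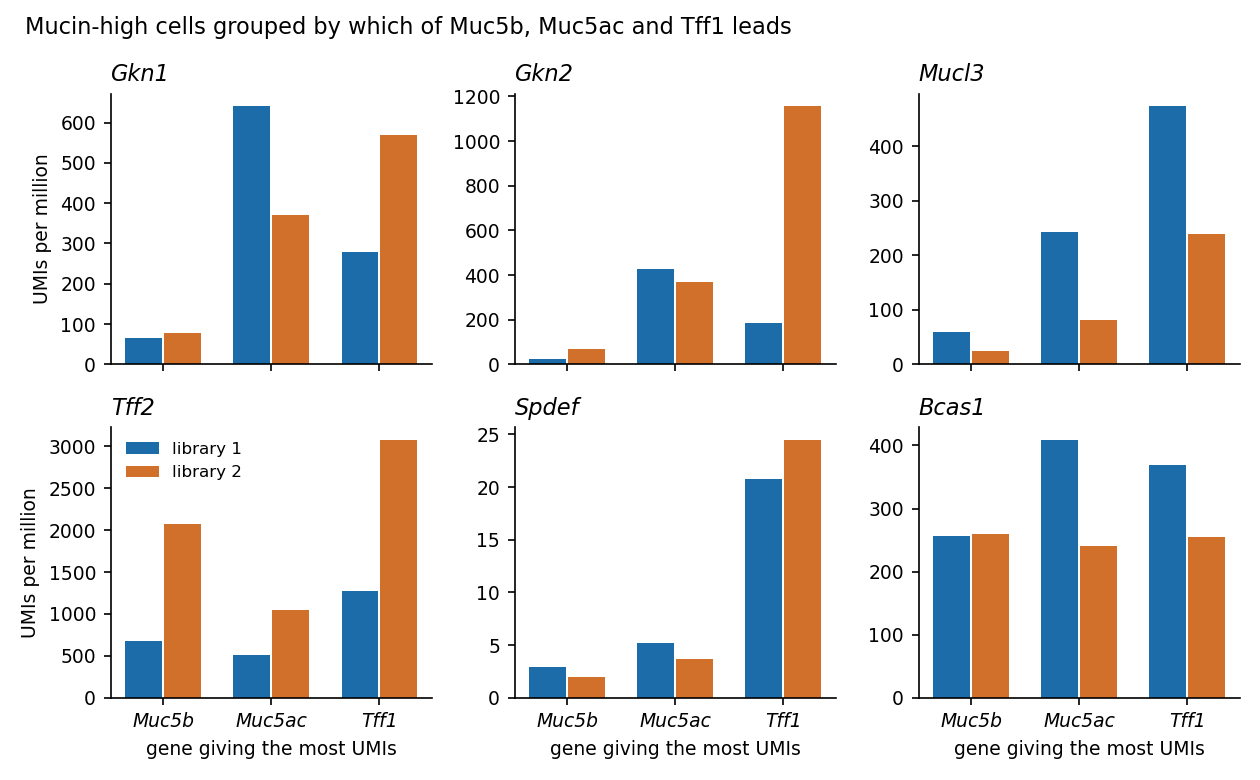
CPM (vertical axes from 0) of Gkn1, Gkn2, Mucl3, Tff2, Spdef and Bcas1 in mucin-high cells grouped by whether Muc5b, Muc5ac or Tff1 gave the most UMIs (horizontal axis), with library 1 in blue and library 2 in orange; bars are sums over the cells of a group, without replicates. Gkn1, Gkn2 and Mucl3 are lowest in Muc5b-led cells in both libraries, Spdef is highest in Tff1-led cells, and Bcas1 is similar across groups in library 2.

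Clusters of base cells built without the genes of the choice placed most mucin-high cells in 3 of 20 clusters. Cluster 9 held 131 and 66 of them, cluster 13 held 131 and 1, and cluster 14 held 35 and 27, so that mucin-high cells made up 40.3%, 46.3% and 21.9% of these clusters. Cluster 13 came almost entirely from library 1 (284 of 285 cells), so a cell state and a feature of that library's tumors cannot be told apart. Within library 1, the mucin-high cells of cluster 9 had 559 CPM of Gkn1 and 407 CPM of Gkn2, whereas those of cluster 13 had 19.2 and 4.19 CPM. Muc5b showed the opposite, at 785 CPM in cluster 9 and 2746 CPM in cluster 13, while Mucl3 (500.1 and 417 CPM) and Bcas1 (380.3 and 473 CPM) were high in both. Cluster 17, by contrast, was a library 2 cluster (155 of 156 cells) and held 16 mucin-high cells.

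Much of the difference from other base cells was shared by the other cells of these clusters. The clusters were built on variable genes of the same cells, so genes that differ may have shaped them, which was not tested. When other base cells were weighted to the same clusters, 23 genes remained at least 2-fold higher in both libraries, all of them among the 273, and 12 were lower, of which 4 were among the 147. Gkn2 (log2 ratio 3.88 and 5.80), Mucl3 (3.0 and 3.73), Gkn1 (2.38 and 3.71), Bcas1 (1.62 and 2.06), Atp2a3, Lgals2, Rbp2, Fer1l4 and Lrrc26 were among the 23. Slurp1, a small secreted protein of keratinizing epithelia, was also there, at 35.8 and 52.9 CPM against 4.00 and 10.2 CPM in cluster-weighted cells. Krt19 had a log2 ratio of 0.49 and 0.73, Cdh1 of 0.26 and 0.04, and Fn1 of -0.69 and -0.82 under this weighting. Lcn2 (18.1 and 19.2 against 82.1 and 97.4 CPM) and Thbs1 (97.1 and 33.1 against 422 and 143 CPM) were among the 12 lower genes.

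Between libraries, mucin-high cells of library 2 had 96 of 8462 tested genes (1.13%) at least 2-fold above library 1 and 41 (0.485%) at least 2-fold below it. These ratios compare 2 pools of tumors and have no replicate. The genes named by rule as highest in library 2 were Ppp1r1b, Gkn2, Hist1h1b, Cdhr5 and Serpinb1a. Cdhr5, a cadherin of the brush border, stood at 16.9 CPM (14.4 to 19.7) in library 1 and 73.3 CPM (64.5 to 83.0) in library 2, and at 6.77 and 12.9 CPM in other base cells. Hist1h1b, a linker histone of dividing cells, stood at 55.9 and 244 CPM, with 41.5 and 146 CPM in other base cells, so that gene differed between libraries in both populations. The lowest were Tesc, Bmp6, Ern2, Thbs1 and Plin4. Tesc stood at 233 and 70.7 CPM in mucin-high cells and at 31.6 and 11.6 CPM in other base cells. MHC class I genes, higher in library 2 throughout the base cells, had a median log2 ratio of 0.46 between libraries in mucin-high cells and 0.97 in other base cells. H2-K1 stood at 702 and 928 CPM in mucin-high cells and at 361 and 820.0 CPM in other base cells, so the lead of mucin-high cells in this gene was larger in library 1; that difference was not tested.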

How the data were processed

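The authors deposited raw counts of UMIs. Cell Ranger 8.0.0 and the build mm10 are named in the submitters' processing notes. The matrix holds 19059 genes and 24282 barcodes; the labels' protocols describe fixed-cell, probe-based 10x libraries, and each value depends on the probes of that gene. Library 1 held 203459556 UMIs and library 2 held 185474400, with medians of 11695 and 10756 per cell.

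Members and gene lists were chosen with earlier results of these data known. UMIs were summed over the cells of a population and library and scaled to CPM with exact Poisson 95% intervals; shares have exact Clopper-Pearson intervals. Log2 ratios use CPM plus 1. A gene was tested with at least 20 CPM in either population of at least 1 library, and counted when past 2-fold in the same direction in both libraries. The text names the 20 higher and 10 lower genes with the largest smaller ratio among those at 50 CPM with intervals apart in both libraries, and for library 2 against library 1 the 5 highest and 5 lowest. Genes of 25 program and 13 marker lists (591 list entries, 7 not in the probe set) may also be named; other genes given against Epcam-high or cluster-weighted cells were picked after their values were seen. Immune barcodes had at least 3 Ptprc UMIs, at least 1000 UMIs and under 0.2% Krt8 and Krt18. The counting of genes past 2-fold was run on simulated sums with Poisson error only. These had no variation between cells or between libraries, so the run checks the calculation and not the counts of genes given here.

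Base cells were clustered on 2000 variable genes, 30 components and 15 neighbors, with Leiden at resolution 1 (scikit-learn 1.9.0, leidenalg 0.10.2, igraph 0.11.9). Doublets were scored with Scrublet and not removed, as the choice of cells has no such step; in an alternative the highest scores were left out at 0.8% per 1000 cells. Other alternatives covered the limit of 5%, depth, thinning to 3000 UMIs, choosing cells on a random part of their UMIs and measuring the rest, median-of-ratios factors, TMM factors computed with edgeR 4.0.16 (R 4.3.3), the CPM added, the filter, weighting and clusters. Python 3.11.15, numpy 2.4.6, scipy 1.17.1, pandas 2.3.3 and matplotlib 3.10.9 were used.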

Additional observations from a re-analysis of the deposited data

How the results depend on the processing

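No paired analysis was possible because each treatment has 1 pooled sample and no test was made. Values are for the library with the smaller ratio. The counts of 273 higher and 147 lower genes became 417 and 257 against other base cells with no UMI of the 3 genes, 23 and 12 against cells weighted to clusters, 180 and 68 with the top 5% by Muc5b and Muc5ac alone, and 173 and 68 with 10 CPM added; the lower count alone was 71 with the top 10% and 223 with no filter on low genes. The gastric median (1.88) was 1.64 with the top 5% within each library, 1.97 without high Scrublet scores, 2.05 as the mean of per-cell shares, 1.81 weighted to depth, 3.12 against cells with no UMI, 0.86 weighted to clusters, 1.42 by Muc5b and Muc5ac alone, 2.17 without clusters of 1 library, 1.77 with 10 CPM added and 0.78 with no filter. In that order where it applies, the epithelial median (1.18) was 1.34, 0.22, 0.82, 0.98 and 0.67 against no-UMI cells, by clusters, by Muc5b and Muc5ac, with 10 CPM and with no filter, and 1.29 and 1.01 with the top 2% and 10%. The mesenchymal median (-0.58) was -0.70 without high Scrublet scores, -0.24 by clusters and -0.42 with no filter. These 3 medians kept their direction in all 18 alternatives.

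Weighting to clusters turned the smaller value of O-glycosylation (-0.0054), endoplasmic reticulum (-0.0179), mucosal defense (-0.23), immediate early (0.12), EGF receptor (0.0501) and ductal marker (-0.20) medians, and of Sptssb (-0.0031), Myh14 (-0.0013) and Grem1 (0.14). Cholesterol genes turned to -0.0052 when thinned, ductal markers to -0.0093 by Muc5b and Muc5ac alone and ion transport to -0.0131 with no filter. The share of base cells was 2.78% and 1.23% with the top 2%, 14.1% and 5.92% with the top 10%, and 5.01% and 5.0% within each library. The largest share of mucin-high cells in 1 cluster was 45.1% at resolution 0.5, from 37.5%. Scaling by TMM or median-of-ratios factors shifted log2 ratios by 0.04 to 0.07. The choice by Muc5b and Muc5ac alone and the removal of 1-library clusters were added after the data were seen. Why values moved was not tested. Depth limits genes under 20 CPM, and the 145 cells of library 2 limit its values.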

Other observations

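Further genes of the lists differed between mucin-high and other base cells. Pglyrp1, a peptidoglycan-recognizing protein, stood at 162 and 223 CPM against 58.2 and 54.5 CPM in other base cells, with 438 and 393 CPM in Epcam-high tumor cells. Ceacam1, an adhesion receptor of epithelia, stood at 145 and 155 CPM against 38.2 and 28.9 CPM. Il22ra1, the epithelial receptor chain for interleukin 22, stood at 62.6 and 63.0 CPM against 29.4 and 28.3 CPM, and Il18 at 23.6 and 18.6 CPM against 9.80 and 7.76 CPM, with 34.7 and 33.2 CPM of Il18 in Epcam-high cells. The interleukin 4 and 13 receptor genes Il4ra and Il13ra1 and their signal carrier Stat6, which act on mucous cells of the airway, were within 2-fold.

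Among genes of amino acid stress, Phgdh, the first enzyme of serine synthesis, was at least 2-fold lower in both libraries (61.0 and 75.7 against 134 and 155 CPM). Slc7a11, the cystine carrier, was past 2-fold in library 1 only (191 and 93.7 against 79.4 and 55.1 CPM).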
